A study of Mus musculus with 16 samples.

Results

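The genes described here were 39 genes of the G2 and mitosis program of the cell cycle. They were taken as a list of symbols, with earlier results of these data known, and all 39 were among the 31053 features of the deposited count matrices. They were followed in CD45+ cells sorted from 2 kinds of subcutaneous mouse tumor that had or had not been irradiated. The tumors were MC38, a colorectal carcinoma line, and Panc02-SIY, a pancreatic adenocarcinoma line that carries the model antigen SIY, each grown in the flank of C57BL/6J mice 6 to 8 weeks of age. Tumors were left untreated (NT) or received 1 dose of 12 Gy of radiation therapy (RT) and were harvested 24 hours later, and live CD45+ cells were enriched on magnetic beads, sorted and captured for 3′ single-cell RNA sequencing. Each of the 4 groups had 4 libraries. The labels do not tie each library to an animal, so p-values measure the spread between these libraries. The sources differ on the number of animals, since the series' design text gives as many per group as there are libraries and the methods of the study give fewer, so libraries of a group may share an animal, and the p-values would then be too small. Each tumor type was a single transplanted line.

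Over the 16 libraries there were 28678 cell barcodes and between 3240877 and 43776342 unique molecular identifiers (UMIs, 1 for each captured transcript). The MC38 libraries were shallower per barcode, with median counts of 1419 to 2070.5 UMIs against 3175 to 6412 UMIs in Panc02-SIY, and they shared barcodes with each other. The 8 MC38 libraries held 9843 barcodes of which 2632 were distinct, and 13.6 to 57.2% of a library's UMIs lay in barcodes that were richer in another MC38 library, against at most 1.0% in Panc02-SIY. The main MC38 results are therefore given a second time with each shared barcode kept only in the library where it was richest. With this sharing the MC38 libraries may not be independent of each other, which the p-values do not account for. Fold changes and adjusted p of single genes are given with all barcodes only. Tumor type, depth and barcode sharing went together, so they cannot be told apart in any comparison of MC38 with Panc02-SIY. Barcodes were clustered after listed cell cycle genes had been left out. Genes off the list stayed in, so the clusters may still depend on the cell cycle. The clusters were named from marker genes, as macrophage-like, T cell-like, NK cell-like, monocyte-like, conventional dendritic cell-like (cDC-like), neutrophil-like and fibroblast-like. The levels of these markers describe the classes and are no separate check, since the same markers gave the names. All 10 T cell markers were detected in T cell-like barcodes. They summed to 6119 to 8278 counts-per-million UMIs (CPM) in each library, against 36.8 to 639 CPM in macrophage-like barcodes.

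As a dividing cell finishes copying its DNA, it builds up the cyclin B and CDK1 kinase that drives entry into mitosis, together with motors, kinetochore proteins and checkpoint kinases that separate the chromosomes, and the anaphase promoting complex then destroys cyclin B and securin so that the cell can divide. Most of these genes are transcribed late in the cycle and stay nearly silent in resting cells, so their transcripts are widely used as a measure of proliferation. Ionizing radiation breaks DNA and activates p53, which raises the kinase inhibitor Cdkn1a (p21). In turn p21 can repress cell cycle genes through the DREAM complex at promoter elements called CHR. CCAAT boxes, counted below as well, are a separate short promoter element. In tumors, lymphocytes, dendritic cells and a part of the macrophages can divide in place, whereas mature neutrophils do not.

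The promoters of many members shared short elements that the list did not use. RefSeq promoter sequence (GRCm38.p6) was matched for 34 of the 39 genes, and Aurkb, Tpx2, Smc4, Dlgap5 and Cdc25c had no match. Within 250 bases before the annotated start, on either strand, the CCAAT box (CCAAT) stood in 25 of 34 members (73.5%) against 33.8% of 32544 mouse promoters. A CHR-like element (TTTGAA or TTCGAA) stood in 11 of 34 (32.4%) against 17.0%, and both kinds stood together in 10 of 34 (29.4%) against 5.99%. A match is only a stretch of letters and not a measured binding site. The first 6 of the 8 promoters printed here belong to members with CCAAT boxes or both elements. Racgap1 is the member with the smallest adjusted p after RT in these data and has a lone CCAAT box close to its start. Pttg1 is the member that stood apart and has neither element in the window. Anln, Birc5, Ndc80, Nuf2 and Tacc3, which were called lower in macrophage-like barcodes of MC38, have neither element too, as have Kif20b and Nusap1. Whether the elements bear on the response was not tested. Each line gives the 150 bases before the start, 5′ to 3′ on the strand of the gene, with both elements in capitals on whichever strand they lie (ATTGG is CCAAT and TTCAAA is TTTGAA read on the other strand).
Ccnb1, chr13:100786487-100786636, minus strand: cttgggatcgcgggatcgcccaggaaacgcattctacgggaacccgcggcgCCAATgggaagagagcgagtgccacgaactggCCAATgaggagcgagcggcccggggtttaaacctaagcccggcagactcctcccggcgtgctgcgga
Cdk1, chr10:69352913-69353062, minus strand: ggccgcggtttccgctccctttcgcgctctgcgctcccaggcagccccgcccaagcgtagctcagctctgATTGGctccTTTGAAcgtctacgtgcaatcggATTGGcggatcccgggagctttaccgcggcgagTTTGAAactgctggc
Top2a, chr11:99024190-99024339, minus strand: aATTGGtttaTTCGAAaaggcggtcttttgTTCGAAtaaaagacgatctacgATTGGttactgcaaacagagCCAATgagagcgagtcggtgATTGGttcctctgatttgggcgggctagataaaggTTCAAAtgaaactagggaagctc
Cdc20, chr4:118437344-118437493, minus strand: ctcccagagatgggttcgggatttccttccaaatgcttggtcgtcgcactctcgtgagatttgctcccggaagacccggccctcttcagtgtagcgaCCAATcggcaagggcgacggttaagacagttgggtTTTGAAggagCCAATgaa
Ube2c, chr2:164769779-164769928, plus strand: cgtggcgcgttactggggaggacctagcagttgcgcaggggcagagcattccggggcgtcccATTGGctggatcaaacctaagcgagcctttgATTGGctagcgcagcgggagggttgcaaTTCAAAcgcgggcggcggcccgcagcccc
Ckap2l, chr2:129297213-129297362, minus strand: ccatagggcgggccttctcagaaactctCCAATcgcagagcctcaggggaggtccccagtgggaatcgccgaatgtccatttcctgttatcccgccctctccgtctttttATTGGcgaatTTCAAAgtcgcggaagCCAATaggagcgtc
Racgap1, chr15:99651657-99651806, minus strand: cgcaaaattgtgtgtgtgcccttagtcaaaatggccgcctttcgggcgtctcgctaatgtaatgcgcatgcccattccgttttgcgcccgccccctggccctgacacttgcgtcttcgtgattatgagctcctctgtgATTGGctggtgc
Pttg1, chr11:43425982-43426131, minus strand: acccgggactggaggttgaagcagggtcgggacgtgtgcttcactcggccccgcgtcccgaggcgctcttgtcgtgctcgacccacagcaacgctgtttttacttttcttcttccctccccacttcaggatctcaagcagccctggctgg
Top2a held the most elements among these 8, with 6 CCAAT boxes and 4 CHR-like elements in its 250 bases. In Cdc20 a CHR-like element lay 18 bases before the start and a CCAAT box 8 bases before it. Of the other lists, both elements together stood in 15 of 33 promoters of further mitosis genes (45.5%) and in 4 of 26 promoters of S phase genes (15.4%).

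Over all CD45+ barcodes, nearly every member had a negative log2 fold change after RT in both tumors, but few passed the test one by one. UMIs were summed per library and tested across all 12615 genes that passed a filter on low counts, with edgeR's quasi-likelihood test and Benjamini-Hochberg adjustment. A gene was called when the adjusted p was below 0.1 and the fold change above 1.3. Except in neutrophil-like barcodes, the 4 groups shared 1 estimate of the spread for each gene. The p-values of Panc02-SIY therefore also draw on the MC38 libraries, and those of MC38 on the Panc02-SIY libraries. Levels of single genes are CPM after edgeR's TMM scaling, and summed levels are CPM of all UMIs in the class. In summed counts, fewer cells of a dividing kind and less RNA per cell cannot be told apart. In MC38, the summed level of the 39 genes was 1606, 944, 996 and 1229 CPM in the 4 NT libraries and 1008, 787, 589.6 and 747 CPM in the 4 RT libraries. The ranges overlapped, since 1 RT library lay above 2 of the NT libraries. In Panc02-SIY, the summed level was 1049, 2383, 1501 and 3086 CPM in NT and 701, 1235, 1163 and 2091 CPM in RT libraries, and these ranges overlapped widely.

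**Figure D1:**
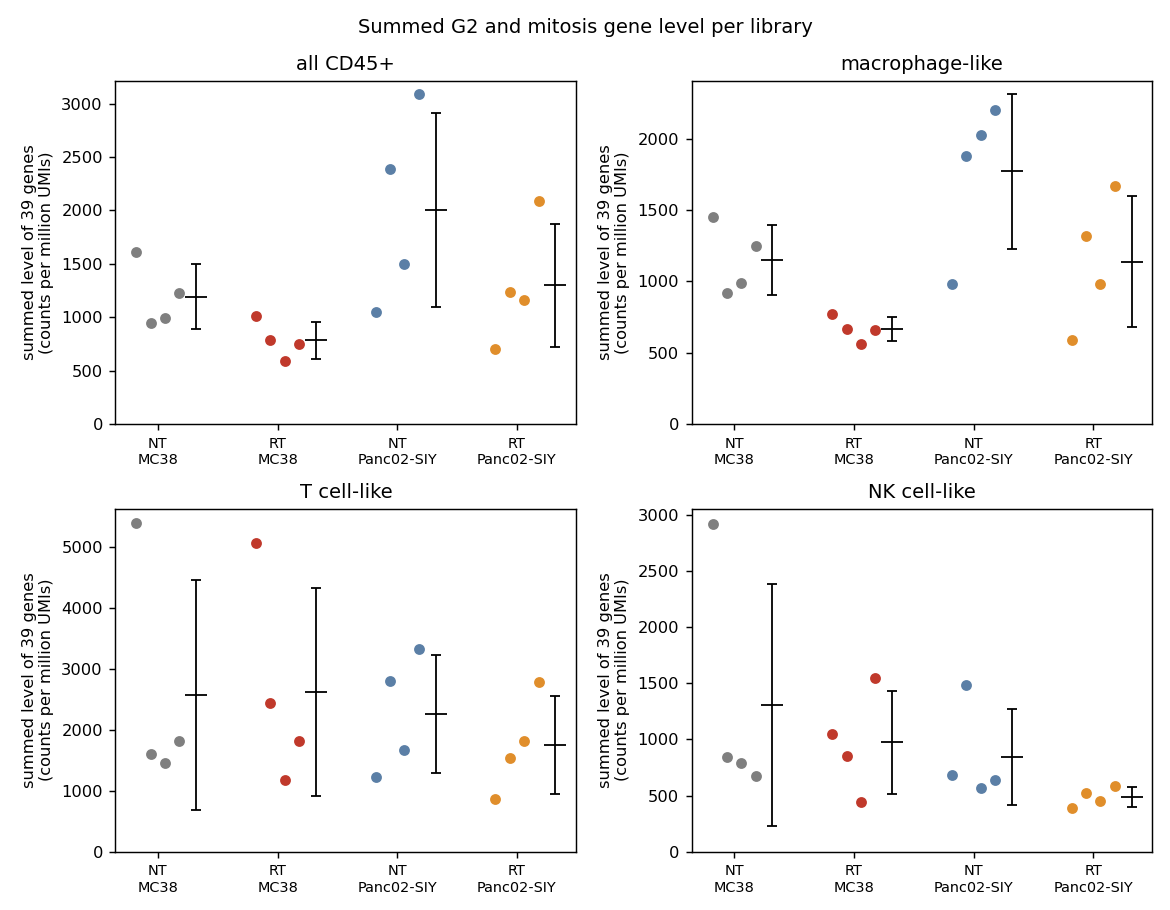
Summed level of the 39 G2 and mitosis genes in CPM (linear axis from 0) in all CD45+, macrophage-like, T cell-like and NK cell-like barcodes, 1 point per library in replicate order, with the mean and SD of 4 libraries beside each group. In macrophage-like barcodes of MC38 the 4 RT libraries (563 to 769 CPM) all sit below the 4 NT libraries (922 to 1451 CPM), whereas in T cell-like barcodes the groups overlap.

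Of the 39 members, 38 had a log2 fold change below 0 in MC38 and 39 in Panc02-SIY, with medians of -0.70 and -0.78, beside medians of 0.035 and -0.03 over all genes tested. In MC38, 1 member was called lower and none higher, where 1.24% of all genes were called lower. In 8 of 39 members all RT libraries lay below all NT libraries, against 5.9% of all genes. The member called was Racgap1, a GTPase activating protein of the cytokinetic ring, at 43.7, 22.4, 30.1 and 37.1 CPM in NT and 23.5, 16.9, 14.5 and 16.5 CPM in RT libraries (-0.94 ± 0.24, adjusted p = 0.055). Its groups overlapped by 1 library each. Leaving out untreated replicate 1 or 4, or irradiated replicate 2, 3 or 4, left no member called. With shared barcodes kept only in the richest library, 6 members were called lower.

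In Panc02-SIY, 5 members were called lower and none higher, where 7.9% of all genes were called lower. No member had all RT libraries below all NT libraries, where 9.0% of all genes did. The 5 were Smc4, a condensin subunit that folds chromosomes, Birc5 (survivin), a subunit of the chromosomal passenger complex, Ccnb2, a B-type cyclin, Cdca3, which helps destroy the Wee1 kinase, and Racgap1. Smc4 was at 163, 226, 190.1 and 243 CPM in NT and 126, 148, 136 and 175 CPM in RT libraries (-0.49 ± 0.15, adjusted p = 0.031). Birc5 was at 34.9, 101, 62.8 and 150.2 CPM in NT and 8.82, 33.2, 24.5 and 65.6 CPM in RT libraries (-1.37 ± 0.49, adjusted p = 0.065). Both genes overlapped between the groups, and replicates 2 and 4 were the highest libraries within NT and within RT. For Ccnb2 the difference was -1.21 ± 0.44 on the log2 scale (adjusted p = 0.066), for Cdca3 it was -1.15 ± 0.43 (adjusted p = 0.073) and for Racgap1 -0.55 ± 0.21 (adjusted p = 0.088).

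The Panc02-SIY count rested on single libraries. The share of all genes called is given for the main fits only. Counts from other fits, here and elsewhere, show how the calls moved and not how the members compare with all genes. Without irradiated replicate 4, the library with the highest RT level, 32 members were called lower, without untreated replicate 1, the lowest NT library, 21 were, and without untreated replicate 3, 8 were. Without untreated replicate 4, the highest NT library, none were, and 1 was called without untreated replicate 2 or without irradiated replicate 1, 2 or 3. With only the 2 Panc02-SIY groups in the fit, 1 was called, whereas the count in MC38 rose in such a fit. Fibroblast-like and unnamed clusters, which carried 3773 to 8770 CPM and 834 to 5391 CPM of member transcripts, were part of this population. Fibroblast markers summed to 11.3 to 298 CPM in NT and 10.6 to 57.1 CPM in RT libraries of Panc02-SIY. With the fibroblast-like and unnamed clusters left out, 13 members were called lower in Panc02-SIY and 1 in MC38. The difference in response between the tumors was tested with an interaction term, which called 0 of 39 members by edgeR (1 at an unadjusted p below 0.05) and 0 by DESeq2, where edgeR called 2.65% of all genes.

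The cells that supplied the member transcripts differed between the tumors. In MC38, macrophage-like barcodes held on average 82.5% of all member UMIs in NT and 70.2% in RT libraries. In Panc02-SIY, T cell-like barcodes held 61.5% in NT and 51.8% in RT libraries, and macrophage-like barcodes held 13.5% and 13.4%. The classes were therefore tested 1 by 1.

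Members were called lower most often in macrophage-like barcodes of MC38. There the summed level of the 39 genes was 1451, 922, 987 and 1251 CPM in NT and 769, 666, 563 and 658 CPM in RT libraries, and every RT library lay below every NT library. With shared barcodes kept only in the richest library, the levels were 1643, 906, 1010.0 and 1288 CPM against 486, 509, 457 and 601 CPM, and the groups again did not overlap. Of the 39 members, 20 were called lower and none higher, where 2.42% of all 12422 genes tested were called lower. In 25 of 39 members all RT libraries lay below all NT libraries, against 6.88% of all genes. The median log2 fold change was -0.88, beside 0.01 over all genes, and 38 members lay below 0. Keeping only the richest library for a shared barcode gave 29 members called lower.

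In macrophage-like barcodes of Panc02-SIY, 9 of 39 members were called lower and none higher, where 4.49% of all genes were called lower. With only the 2 Panc02-SIY groups in the fit, 1 was called, whereas the count in MC38 rose in such a fit. Of the members, 5 separated the Panc02-SIY groups completely, where 3.81% of all genes had all RT libraries below all NT libraries. The summed level was 983, 1880.1, 2026 and 2204 CPM in NT and 589, 1320.3, 983 and 1666 CPM in RT libraries, with overlap at untreated replicate 1, which held 254 member UMIs in 144 barcodes. For a single gene, 3 counts were 10.96 CPM in that library and 5.54 CPM in irradiated replicate 1. Lower values there rest on fewer than 3 UMIs. Most of the class lay in different clusters in the 2 tumors, clusters 1, 2, 9 and 10 in MC38 and clusters 3, 8 and 10 in Panc02-SIY. Cluster 3 held 1394 of the 2287 NT and 676 of the 1416 RT barcodes of the class in Panc02-SIY. These barcodes were shallow, at medians of 1053.5 UMIs in NT and 836.5 UMIs in RT. Its leading genes were Igkc and Ighg2b, and the B cell markers Ighm and Igkc and the cDC markers Xcr1 and Cadm1 were raised beside macrophage markers. The interaction term called 0 of 39 members by edgeR (1 at an unadjusted p below 0.05) and 0 by DESeq2, where edgeR called 0.0564% of all genes. T cell markers, which mark another cell type, summed to 36.8 to 41.0 CPM in NT and 40.9 to 75.0 CPM in RT libraries of MC38, and to 325 to 639 CPM and 207 to 363 CPM in Panc02-SIY, in the macrophage-like barcodes. Their part in the result was not tested. Tumor and epithelial markers summed to 12.7 to 25.8 CPM in NT and 25.0 to 44.5 CPM in RT libraries of MC38, with 3 of 7 detected in each group. Krt8, Krt19 and Cldn4 were at 0 in both groups, Cldn7 in NT only and Krt18 in RT only.

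**Figure D2:**
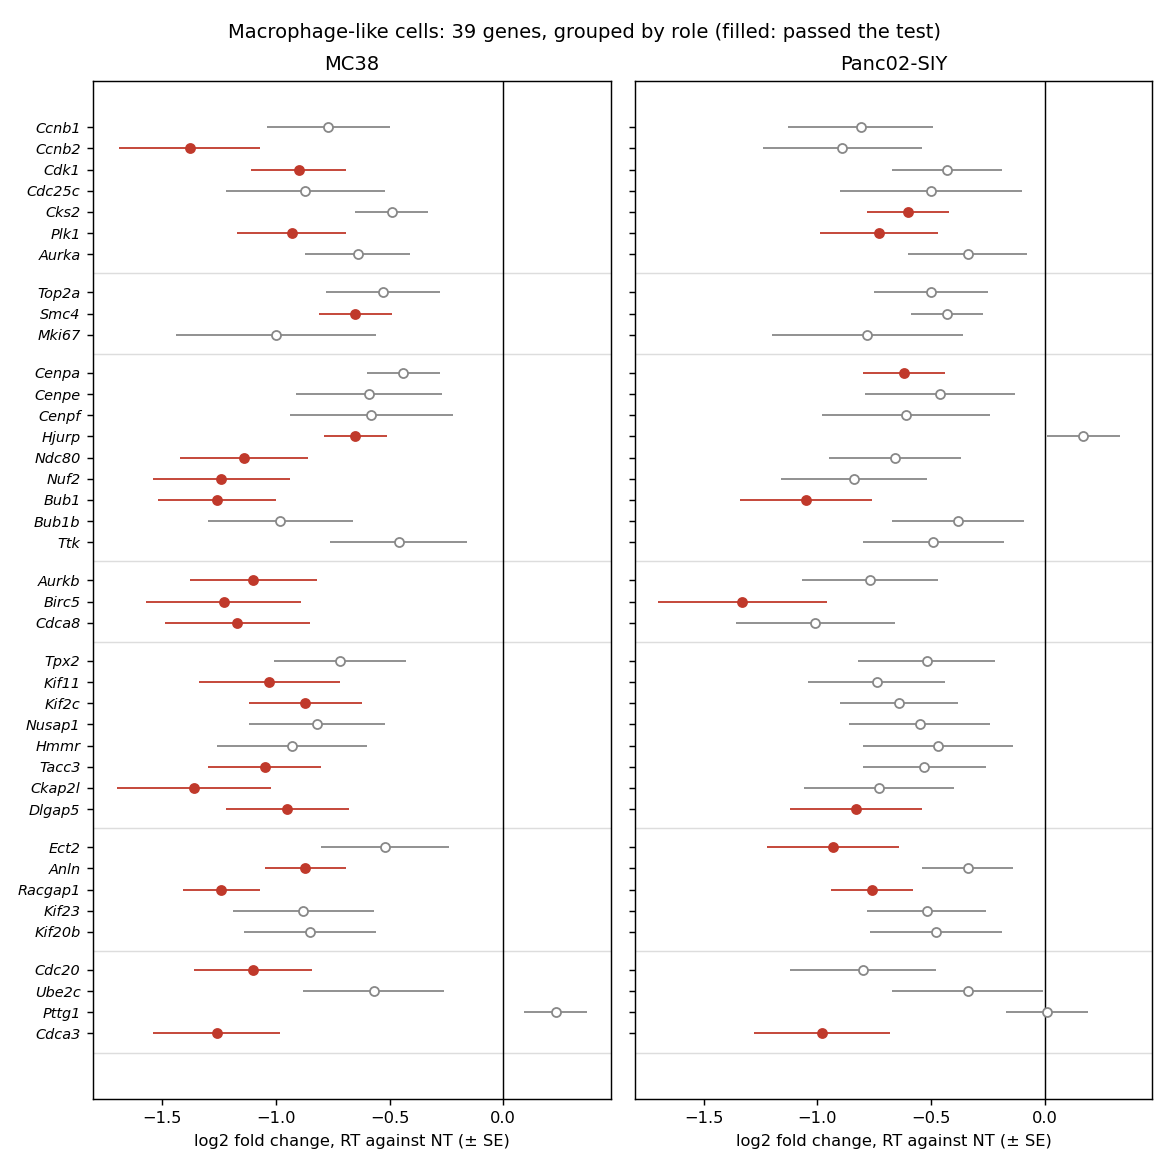
Log2 fold change of RT against NT (horizontal axis, bars show the standard error) for each of the 39 genes in macrophage-like barcodes of MC38 (left) and Panc02-SIY (right), grouped by role with lines between the roles. Filled red points passed the test, 20 in MC38 and 9 in Panc02-SIY, and the points to the right of 0 are Pttg1 in MC38 and Hjurp and Pttg1 in Panc02-SIY.

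Among the 7 genes of mitotic entry, 3 were called lower in MC38 and 2 in Panc02-SIY macrophage-like barcodes. Cdk1, the kinase that starts mitosis, was at 47.6, 40.2, 38.2 and 41.3 CPM in NT and 31.9, 21.8, 17.2 and 21.4 CPM in RT libraries of MC38, with no overlap (-0.90 ± 0.21, adjusted p = 0.022). In Panc02-SIY Cdk1 was at 14.6, 41.7, 37.9 and 48.8 CPM and 18.5, 31.1, 18.6 and 41.3 CPM, which overlapped and was not called (-0.43 ± 0.24, adjusted p = 0.31). The cyclin B genes, whose products activate Cdk1, differed in how firmly they separated. Ccnb2 was at 46.96, 21.3, 37.01 and 44.1 CPM in NT and 20.7, 12.95, 11.9 and 14.5 CPM in RT libraries of MC38 (-1.38 ± 0.31, adjusted p = 0.026), the largest log2 difference of any member there. Ccnb1 was at 36.1, 12.6, 16.2 and 26.3 CPM and 15.5, 10.6, 13.7 and 14.4 CPM, which overlapped and was not called (-0.77 ± 0.27, adjusted p = 0.15). Cks2, a small subunit of the kinase, was the reverse case, called in Panc02-SIY (-0.60 ± 0.18, adjusted p = 0.045) and not in MC38 (-0.49 ± 0.16, adjusted p = 0.11). Its CPM in MC38 was 68.4, 54.9, 56.2 and 53.9 in NT and 50.8, 36.8, 40.5 and 39.5 in RT, with no overlap, and in Panc02-SIY 54.8, 69.2, 82.8 and 98.7 in NT and 31.4, 64.2, 39.95 and 64.6 in RT, with overlap. A call in 1 tumor and not in the other is no measured difference between them, and the interaction term called neither gene. Plk1, a kinase of mitotic entry and exit, was called in both tumors (-0.93 ± 0.24, adjusted p = 0.026 in MC38 and -0.73 ± 0.26, adjusted p = 0.088 in Panc02-SIY). Aurka, a centrosomal kinase, and Cdc25c, the phosphatase that activates Cdk1, were called in neither.

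Of the 3 genes of chromosome structure and proliferation, 1 was called lower in MC38 and none in Panc02-SIY. Top2a, the topoisomerase that untangles sister chromatids, was at 122, 92.2, 87.2 and 111 CPM in NT and 71.5, 78.00, 61.5 and 74.6 CPM in RT libraries of MC38, and Mki67, which coats mitotic chromosomes and is the gene of the Ki-67 marker, was at 60.1, 33.6, 42.7 and 63.7 CPM and 31.5, 26.2, 17.7 and 27.1 CPM. Neither overlapped between the groups, yet neither was called (-0.53 ± 0.25, adjusted p = 0.31 for Top2a and -1.0 ± 0.44, adjusted p = 0.28 for Mki67). In Panc02-SIY the same genes overlapped, with Mki67 at 40.2, 129, 125 and 189 CPM in NT and 14.8, 79.2, 48.2 and 132 CPM in RT libraries (-0.78 ± 0.42, adjusted p = 0.32). The member called was Smc4 (-0.65 ± 0.16, adjusted p = 0.022 in MC38 and -0.43 ± 0.16, adjusted p = 0.11 in Panc02-SIY).

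Of the 9 genes of the centromere, kinetochore and spindle checkpoint, 4 were called lower in MC38 and 2 in Panc02-SIY. Bub1, a checkpoint kinase at the kinetochore, was at 15.7, 12.6, 13.8 and 13.3 CPM in NT and 7.32, 3.53, 4.70 and 7.26 CPM in RT libraries of MC38 (-1.26 ± 0.26, adjusted p = 0.0077), with a wide gap between the groups. In Panc02-SIY it was at 0, 22.3, 12.4 and 18.2 CPM and 1.85, 6.49, 7.66 and 10.1 CPM and was called too (-1.05 ± 0.29, adjusted p = 0.031), although untreated replicate 1 had no Bub1 UMI, which at its depth allows up to 10.96 CPM. Hjurp, the chaperone that loads the centromeric histone, was called in MC38, at 37.4, 27.1, 26.8 and 33.5 CPM and 22.8, 20.02, 15.4 and 21.7 CPM (-0.65 ± 0.14, adjusted p = 0.0089), and was not called in Panc02-SIY (0.17 ± 0.16, adjusted p = 0.6). Cenpa, that histone itself, was called in Panc02-SIY alone, at 58.5, 67.8, 65.1 and 79.98 CPM in NT and 24.00, 49.3, 36.7 and 57.5 CPM in RT libraries with no overlap (-0.62 ± 0.18, adjusted p = 0.045), against -0.44 ± 0.16 on the log2 scale in MC38 (adjusted p = 0.15). The checkpoint genes Bub1b and Ttk and the kinetochore genes Cenpe and Cenpf were called in neither tumor, with log2 differences from -0.98 to -0.38. Nuf2, part of the Ndc80 complex that grips microtubules, was called in MC38 with a slight overlap, at 12.3, 9.72, 6.34 and 9.56 CPM and 3.45, 6.48, 4.48 and 2.38 CPM (-1.24 ± 0.30, adjusted p = 0.021), as was its partner Ndc80 without overlap (-1.14 ± 0.28, adjusted p = 0.023).

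All 3 members of the chromosomal passenger complex, which corrects faulty attachments and marks the site of division, were called lower in MC38, with log2 differences of -1.10 ± 0.28 for its kinase Aurkb, -1.23 ± 0.34 for Birc5 and -1.17 ± 0.32 for Cdca8 (borealin). Birc5 was at 93.1, 50.7, 63.2 and 73.4 CPM in NT and 49.5, 29.4, 22.2 and 24.4 CPM in RT libraries of MC38 (adjusted p = 0.072), and at 62.1, 78.6, 110.0 and 125 CPM and 9.23, 49.3, 22.99 and 54.4 CPM in Panc02-SIY (-1.33 ± 0.37, adjusted p = 0.047). The groups did not overlap for Birc5 in either tumor.

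Spindle genes were called lower for 5 of 8 in MC38 and 1 of 8 in Panc02-SIY. Ckap2l, a spindle pole protein, was at 21.03, 12.4, 14.00 and 20.6 CPM in NT and 6.46, 7.06, 4.70 and 8.06 CPM in RT libraries of MC38 with no overlap (-1.36 ± 0.34, adjusted p = 0.033). Dlgap5, which bundles spindle fibres, was called in both tumors, with -0.95 ± 0.27, adjusted p = 0.057 in MC38 and -0.83 ± 0.29, adjusted p = 0.088 in Panc02-SIY. Its CPM in Panc02-SIY was 3.65, 24.00, 23.1 and 23.2 in NT and 3.69, 12.3, 9.30 and 15.8 in RT libraries, and the overlap came from untreated replicate 1. That value and the one of irradiated replicate 1 rest on fewer than 3 UMIs each, so their order is not secured. Nusap1, which bundles microtubules near chromosomes, did not overlap in MC38, at 36.97, 20.8, 17.2 and 22.4 CPM and 15.5, 12.95, 8.73 and 16.9 CPM, and was not called (-0.82 ± 0.30, adjusted p = 0.18). The motors Kif11 and Kif2c and the spindle scaffold Tacc3 were called in MC38, at -1.03 ± 0.31, -0.87 ± 0.25 and -1.05 ± 0.25 on the log2 scale, and Tpx2 and Hmmr were called in neither tumor.

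Among the 5 genes of cytokinesis, 2 were called in each tumor. Racgap1 had the smallest adjusted p of all members in both tumors. It was at 40.2, 20.8, 28.7 and 36.5 CPM in NT and 12.5, 13.3, 13.2 and 14.4 CPM in RT libraries of MC38, with no overlap (-1.24 ± 0.17, adjusted p = 9e-05). In Panc02-SIY it was at 32.9, 50.1, 52.04 and 48.7 CPM and 33.2, 33.1, 20.3 and 30.5 CPM, where only untreated replicate 1 fell among the RT libraries (-0.76 ± 0.18, adjusted p = 0.011). Anln (anillin), a scaffold of the contractile ring, was tightly grouped in MC38, at 16.4, 14.5, 15.5 and 14.98 CPM and 9.05, 8.83, 6.27 and 9.38 CPM (-0.87 ± 0.18, adjusted p = 0.0069), and not called in Panc02-SIY (-0.34 ± 0.20, adjusted p = 0.34). Ect2, which activates the small GTPase of the ring, was called in Panc02-SIY, at 7.31, 11.5, 10.1 and 13.5 CPM and 1.85, 3.24, 5.47 and 8.34 CPM with slight overlap (-0.93 ± 0.29, adjusted p = 0.052), and not in MC38 (-0.52 ± 0.28, adjusted p = 0.37). The kinesins Kif23 and Kif20b were called in neither.

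In the group of the anaphase promoting complex and its partners, 2 of 4 were called in MC38 and 1 of 4 in Panc02-SIY. Cdca3 was called in both, at 42.5, 27.9, 24.5 and 35.7 CPM in NT and 15.5, 15.6, 10.1 and 14.1 CPM in RT libraries of MC38 (-1.26 ± 0.28, adjusted p = 0.021) and at 14.6, 44.5, 34.9 and 53.5 CPM and 7.39, 20.1, 13.1 and 31.03 CPM in Panc02-SIY (-0.98 ± 0.30, adjusted p = 0.064). Ube2c, the enzyme that hands ubiquitin to the complex, varied between libraries, at 98.2, 48.4, 50.4 and 62.99 CPM and 52.6, 43.6, 35.8 and 44.2 CPM in MC38, and was not called (-0.57 ± 0.31, adjusted p = 0.42). Pttg1 (securin), the inhibitor that holds sister chromatids together until anaphase, was the 1 member whose log2 difference lay above 0 in MC38. It was at 63.95, 74.9, 83.7 and 71.1 CPM in NT and 88.8, 95.1, 73.2 and 89.3 CPM in RT libraries, which overlapped (0.23 ± 0.14, adjusted p = 0.44), and in Panc02-SIY its log2 difference was 0.01 ± 0.18. Cdc20, the activator of the complex, was called in MC38 (-1.10 ± 0.26, adjusted p = 0.025) and not in Panc02-SIY (-0.80 ± 0.32, adjusted p = 0.16).

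**Figure D3:**
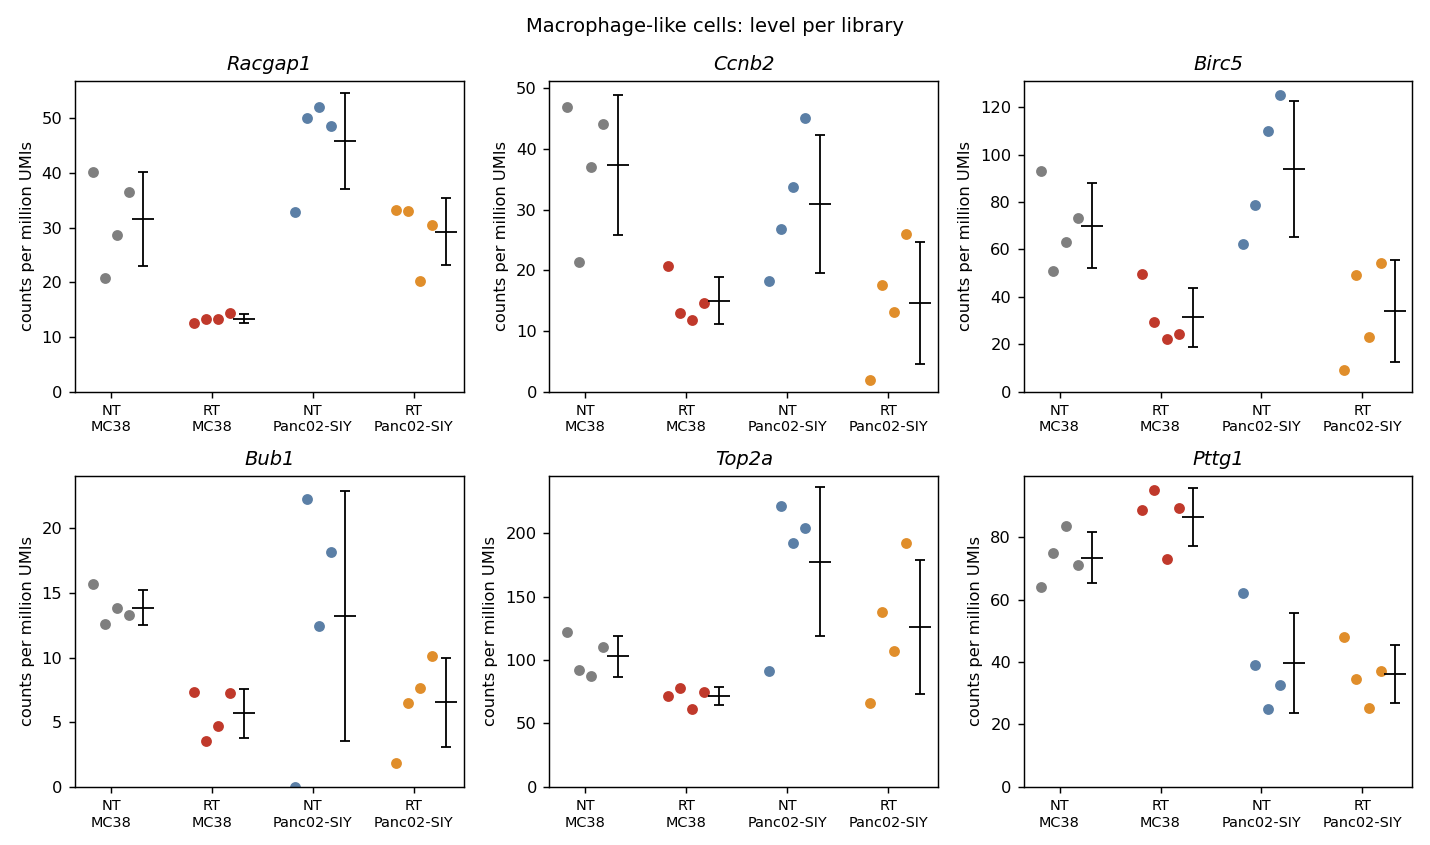
Level of 6 members in macrophage-like barcodes in CPM (linear axes from 0), 1 point per library in replicate order, with the mean and SD of 4 libraries beside each group. Racgap1, Ccnb2, Birc5, Bub1 and Top2a sit lower in all 4 RT libraries of MC38 than in its NT libraries, and Pttg1 does not.

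The macrophage-like counts also moved with single libraries. In MC38, leaving out irradiated replicate 3 gave 9 members called lower, irradiated replicate 4 gave 11, and untreated replicate 1 gave 13, and in each of these fits 38 members lay below 0. In Panc02-SIY, leaving out irradiated replicate 4, again the highest RT library, gave 27 members, leaving out untreated replicate 4 gave 1 and irradiated replicate 3 gave 2, and untreated replicate 2 gave 6 and irradiated replicate 2 gave 5. Within single clusters, the deepest macrophage-like cluster of MC38, cluster 9 (median 27065 UMIs per barcode in NT and 23714 in RT), held 713 to 1490 CPM of member transcripts in NT and 400 to 542 CPM in RT libraries. Cluster 2, with the most member transcripts per UMI, held 1838 to 2664 CPM and 1401 to 1506 CPM, so the groups did not overlap in either cluster. In cluster 1 they held 446 to 702 CPM and 385 to 525 CPM, and in cluster 10, 1181 to 1882 CPM and 1016 to 1460 CPM, with overlap in both. These cluster levels use all barcodes and were not repeated without shared barcodes. Of the macrophage-like barcodes of MC38, only 857 of 3404 in NT and 774 of 3814 in RT remain when each shared barcode is kept in its richest library. In Panc02-SIY, the deep cluster 8 held 1941 to 2140 CPM in the 3 NT libraries with at least 10 of its barcodes and 601 to 1721 CPM in the 4 RT libraries, with no overlap. In its clusters 3 and 10 the levels were 1411 to 2793 CPM and 661 to 1638 CPM in NT and 968 to 1431 CPM and 541 to 1463 CPM in RT libraries, with overlap in both. The median over libraries was lower in RT in clusters 3 and 8 (1854 and 1163 CPM, and 2124 and 1242 CPM) and higher in RT in cluster 10 (1099.5 CPM in NT and 1377 CPM in RT).

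In T cell-like barcodes of Panc02-SIY, the main source of member transcripts in that tumor, no member was called although all 39 lay below 0. The median log2 fold change was -0.53, beside 0.02 over all genes. edgeR and DESeq2 each called 0 of 39 members, and 1 had an unadjusted p below 0.05 in edgeR, where 4.67% of all 10865 genes tested were called lower. The summed level was 1229, 2797, 1669 and 3313 CPM in NT and 862, 1537, 1810.0 and 2787 CPM in RT libraries, and the 2 groups interleaved. Top2a was at 122, 394, 207 and 435 CPM in NT and 95.1, 191, 234 and 361 CPM in RT libraries (-0.39 ± 0.53, adjusted p = 0.76), and Mki67 was at 96.99, 247, 128 and 384 CPM and 31.3, 106, 124 and 246 CPM (-0.73 ± 0.61, adjusted p = 0.58). In both genes the libraries of replicates 2 and 4 were high in NT, and replicate 4 was high in RT. Leaving out irradiated replicate 4 gave 2 members called lower.

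In T cell-like barcodes of MC38, of which there were 27 to 97 per library, no member was called by edgeR or DESeq2 (0 at an unadjusted p below 0.05 in edgeR), where 0.092% of all genes were called lower. The summed level was 5384, 1609, 1455 and 1822 CPM in NT and 5049.8, 2434, 1182 and 1808 CPM in RT libraries, with replicate 1 of each group far above the rest. The median log2 fold change was -0.16, and 26 of 39 members lay below 0.

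Cluster 13 was picked as the T cell-like cluster with the highest member level. In Panc02-SIY it held 51.9 to 82.7% of T cell-like member UMIs in NT and 26.8 to 77.1% in RT libraries, lowest in irradiated replicate 1. On average RT libraries had a smaller share of their T cell-like barcodes there and a higher member level within it. Cluster 13 held 6.94, 14.7, 9.55 and 19.3% of T cell-like barcodes in NT and 1.02, 3.98, 5.53 and 8.52% in RT libraries, and these ranges overlapped. Its summed member level was 4521, 7038, 5187 and 7124 CPM in NT and 11783, 10753, 8310 and 11022 CPM in RT libraries, where the first RT value rests on 3 barcodes, and every RT library lay above every NT library. By gene, 38 of 39 members had a higher mean level in RT within cluster 13, among them Ube2c (log2 ratio of the means 1.42), Nusap1 (1.21) and Top2a (1.10), with Birc5 at 0.23 and Pttg1 at -0.41. These means weigh the 4 libraries of a group equally, so the 3 barcodes of the first RT library count as much as any other library. The median depth per barcode in the cluster was 16851 to 19484 UMIs in NT and 9519 to 15745 UMIs in RT libraries. Outside cluster 13, the other T cell-like barcodes held 680 to 930 CPM in NT and 643 to 793 CPM in RT libraries, which overlapped. These values are a description with no test, since the cluster was drawn from the same cells and picked by its member level. The low level in the other T cell-like barcodes follows in part from that choice. Pclaf, which was not on the list of cell cycle genes left out of the clustering, was among the leading genes of cluster 13.

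**Figure D4:**
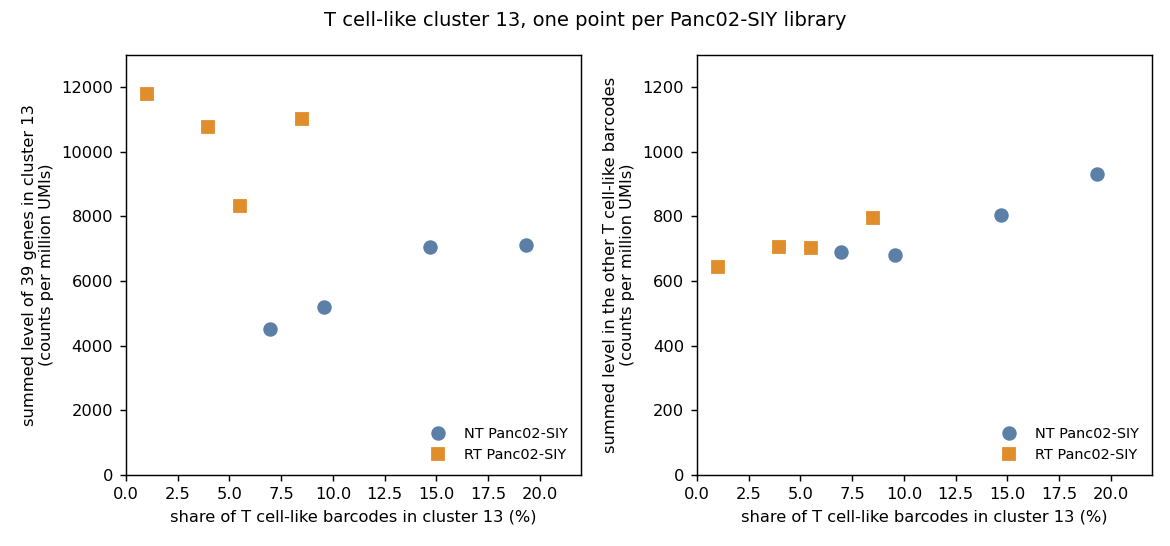
Summed level of the 39 genes in CPM against the share of T cell-like barcodes that fell in cluster 13 (percent), 1 point per Panc02-SIY library, inside the cluster (left) and in all other T cell-like barcodes (right, with its own vertical scale). The cluster was picked for its high member level. The shares overlap (6.94 to 19.3% in NT and 1.02 to 8.52% in RT libraries), the levels inside the cluster do not (4521 to 7124 CPM and 8310 to 11783 CPM), and outside the cluster all 8 libraries lie between 643 and 930 CPM.

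In NK cell-like barcodes 35 of the 39 members passed the filter on low counts, and 1 was called lower in Panc02-SIY, where 0.686% of all 9908 genes tested were called lower. It was Ckap2l, at 2.98, 11.1, 2.43 and 3.19 CPM in NT and 0, 0.660, 0.589 and 1.02 CPM in RT libraries, with no overlap (-2.65 ± 0.73, adjusted p = 0.06). All 16 libraries together held 43 UMIs of Ckap2l, MC38 included, so the Panc02-SIY call rested on fewer. The library at 0 allows up to 2.59 CPM, which is above untreated replicate 3, so the gap between the groups is not secured. No member was called without untreated replicate 2 or irradiated replicate 1, 2 or 3, 2 were without untreated replicate 1 or 4, 3 without untreated replicate 3 and 4 without irradiated replicate 4. Besides Ckap2l, 8 members had all RT libraries below all NT libraries, among them Mki67 at 33.7, 129, 24.3 and 31.3 CPM and 0.865, 20.5, 2.94 and 23.4 CPM (-2.05 ± 0.77, adjusted p = 0.33), where 4.06% of all genes separated so. The summed level was 687, 1483, 569.7 and 637 CPM in NT and 391.9, 523, 448 and 589 CPM in RT libraries, overlapping at 1 RT library. In MC38, with 14 to 48 NK cell-like barcodes per library, none was called by edgeR (3 at an unadjusted p below 0.05) or DESeq2, where 0.0807% of all genes were called lower.

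In cDC-like barcodes, also with 35 members tested, no member was called in either tumor by edgeR or DESeq2 (0 at an unadjusted p below 0.05 in MC38 and 1 in Panc02-SIY in edgeR), where 0.0631% and 1.72% of all genes were called. Their summed level was 541, 605, 947 and 582 CPM in NT and 692, 2304, 416 and 389.8 CPM in RT libraries of MC38, and 496, 1567, 1039.7 and 775 CPM and 175, 715, 623 and 766 CPM in Panc02-SIY, and both pairs of groups overlapped. In monocyte-like barcodes only 16 members passed the filter and none was called by edgeR (0 at an unadjusted p below 0.05 in MC38 and 2 in Panc02-SIY) or DESeq2, where 0.0% and 0.783% of all genes were called. Their summed level was low, at 401 to 509 CPM in NT and 347 to 617 CPM in RT libraries of MC38 and 295 to 379 CPM and 251 to 332 CPM in Panc02-SIY.

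Neutrophil-like barcodes, which should hold few of these transcripts, served as the background for the share of dividing cells. In Panc02-SIY they held 646 to 1023 CPM of member transcripts in NT and 567 to 651 CPM in RT libraries, and few of these came from Top2a. Cks2 gave 34.6%, Pttg1 14.6% and Kif23 14.0% of their member UMIs and Top2a 3.91%, whereas in T cell-like barcodes of the same tumor Top2a led with 12.0%. With each barcode thinned to 1000 UMIs, 2 or more members were detected in 11.3 to 17.2% of neutrophil-like barcodes in NT and 6.80 to 10.5% in RT libraries (26.1 to 47.3% and 21.9 to 28.6% unthinned, at median depths of 2279 to 2737 and 1890 to 2456 UMIs). The thinned neutrophil-like shares were thus themselves lower in RT, with no overlap, and they give a background for Panc02-SIY only. In T cell-like barcodes of Panc02-SIY the thinned shares were 14.5 to 28.8% and 12.4 to 23.0% (74.9 to 87.3% and 57.8 to 77.5% unthinned, at median depths of 7492 to 9012 and 4994 to 6680 UMIs). In macrophage-like barcodes they were 14.1 to 33.6% and 11.3 to 18.2% in Panc02-SIY, and 15.7 to 18.9% and 13.02 to 14.4% in MC38 (27.1 to 63.9% and 26.9 to 59.6% unthinned in Panc02-SIY and 36.4 to 49.2% and 27.8 to 46.5% in MC38, at median depths of 905 to 2568 and 1034 to 6383 UMIs and 1546 to 2176 and 1476 to 2318 UMIs). Of the macrophage-like barcodes, 684 and 474 in Panc02-SIY and 778 and 855 in MC38 held too few UMIs to be thinned. In NK cell-like barcodes of Panc02-SIY the thinned shares, 8.44 to 11.5% and 4.37 to 9.75%, lay at or below those of neutrophil-like barcodes (51.9 to 66.1% and 34.6 to 57.9% unthinned). Since Cks2, Pttg1 and Kif23 gave much of the neutrophil-like member UMIs, this cannot tell whether NK cell-like barcodes held dividing cells. In NT libraries, NK cell-like cluster 4 held 457 to 576 CPM of member transcripts and cluster 19 held 604 to 2409.5 CPM. No neutrophil-like member was called in Panc02-SIY by edgeR (6 at an unadjusted p below 0.05) or DESeq2, where 0.0248% of all genes were called, and MC38 held too few neutrophil-like barcodes to test (1 to 5 per library).

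The other cell cycle lists gave a setting for the members. In macrophage-like barcodes of MC38, 27 of 30 S phase genes and 25 of 44 further mitosis genes were called lower and none higher. The S phase genes with the smallest adjusted p were Mcm7, a subunit of the replicative helicase (-1.54 ± 0.18, adjusted p = 3e-05), Tyms, which makes thymidylate (-1.18 ± 0.17, adjusted p = 0.0002), and Ung, which removes uracil from DNA (-1.93 ± 0.29, adjusted p = 0.00035). Among the further mitosis genes they were Ncapd2, a condensin subunit (-1.22 ± 0.20, adjusted p = 0.0011), the kinesin Kif22 (-1.32 ± 0.25, adjusted p = 0.003) and Troap (-2.11 ± 0.43, adjusted p = 0.0048). Over the regulators of the mitotic promoters, Foxm1, the factor that switches on many G2 genes, was called lower in MC38 (-1.02 ± 0.23, adjusted p = 0.011) and not in Panc02-SIY (-0.46 ± 0.22, adjusted p = 0.24), whereas Rbl2, the p130 subunit of the DREAM complex, was called higher in both (0.84 ± 0.14, adjusted p = 0.001 and 0.64 ± 0.15, adjusted p = 0.0092). Of the 6 genes that hold cells in G2, Pkmyt1, an inhibitory kinase of Cdk1, was called lower in both (-1.50 ± 0.25, adjusted p = 0.00082 and -1.09 ± 0.24, adjusted p = 0.0071) and Chek1 in Panc02-SIY (-1.12 ± 0.28, adjusted p = 0.014).

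**Figure D5:**
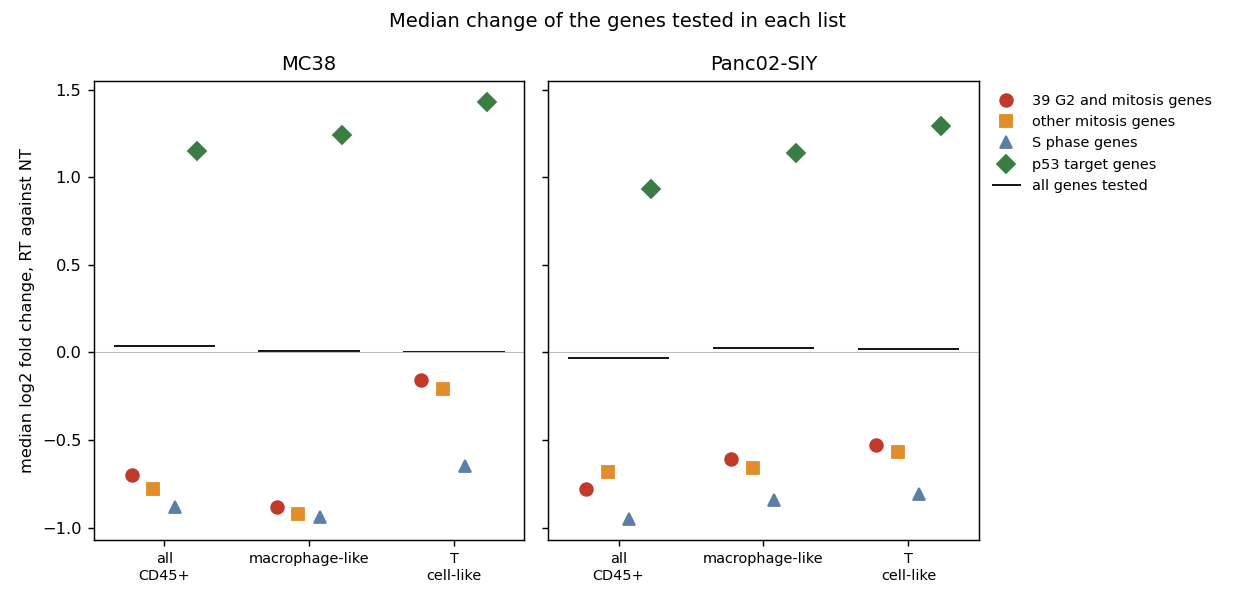
Median log2 fold change of RT against NT over the genes tested in each of 4 lists, in all CD45+, macrophage-like and T cell-like barcodes of MC38 (left) and Panc02-SIY (right), with a black line at the median of all genes tested. The 39 G2 and mitosis genes lie at -0.88 in macrophage-like barcodes of MC38 and at -0.16 in its T cell-like barcodes, the S phase genes lie below them in each of these 6 populations, and the p53 targets lie between 0.93 and 1.43.

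In macrophage-like barcodes of Panc02-SIY, 23 of 30 S phase and 17 of 44 further mitosis genes were called lower and none higher. In T cell-like barcodes of Panc02-SIY, 22 of 30 S phase genes were called lower, with a median of -0.81, while 2 of 44 further mitosis genes were, Spc24 and Cenpm, and none of the 39 members. Histone genes with symbols that start with Hist were called lower for 16 of 41 there. That list was not limited to histones made in S phase. Mcm7 differed by -0.88 ± 0.14 on the log2 scale in these T cells (adjusted p = 0.00025). Whether S phase and mitotic genes differed from each other in response was not tested. The ratio of summed member to summed S phase counts in all CD45+ barcodes was 0.787 to 1.43 in NT and 1.08 to 1.45 in RT libraries of MC38, which overlapped.

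p53 targets went the other way. They were called higher for 14 of 17 tested in macrophage-like barcodes of MC38, for 12 of 17 in those of Panc02-SIY and for 11 of 16 in T cell-like barcodes of Panc02-SIY, with none called lower. Of all genes tested, 2.5%, 4.68% and 3.06% were called higher in these comparisons. Cdkn1a was at 566, 606, 555 and 417 CPM in NT and 1167, 1475, 1459 and 1439 CPM in RT libraries in macrophage-like barcodes of MC38 (1.37 ± 0.15, adjusted p = 3.2e-05), and at 84.02, 45.2, 36.1 and 62.9 CPM and 637, 611, 658 and 788 CPM in Panc02-SIY (3.68 ± 0.18, adjusted p = 1.2e-09). The NT libraries of MC38 lay between 417 and 606 CPM, just under the RT libraries of Panc02-SIY, and the change differed between the tumors by the interaction term (-2.31 ± 0.23, adjusted p = 0.00011). Ccng1, a cyclin G gene and p53 target, rose in both tumors, from 50.8, 53.6, 53.5 and 40.7 CPM to 128, 166, 174 and 155 CPM in MC38 (1.66 ± 0.12, adjusted p = 2.7e-09) and from 32.9, 57.7, 59.1 and 52.1 CPM to 159, 169, 152 and 180.0 CPM in Panc02-SIY (1.62 ± 0.13, adjusted p = 2.1e-08), with an interaction term of 0.04 ± 0.17, adjusted p = 1.0. In the T cell-like barcodes of Panc02-SIY, where no member was called, Cdkn1a was at 25.4, 17.5, 13.3 and 26.2 CPM in NT and 305, 209, 205 and 255 CPM in RT libraries (3.56 ± 0.24, adjusted p = 1.1e-08).

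Before treatment, 20 members were lower in macrophage-like barcodes of MC38 than in those of Panc02-SIY, in a comparison that uses the NT libraries of both comparisons above and in which tumor, depth and barcode sharing go together. Of the 39 members, 20 were called lower and 1 higher, where 23.9% of all genes were called lower and 26.6% higher. Kif23, a kinesin of the midbody, had the most negative log2 difference, with 22.5, 10.5, 11 and 19.4 CPM in MC38 and 65.8, 59.8, 63.9 and 77.6 CPM in Panc02-SIY (-2.08 ± 0.26, adjusted p = 9.8e-06). Mki67 lay in the same direction (-1.44 ± 0.41, adjusted p = 0.011), as did Bub1b, a checkpoint protein (-1.27 ± 0.27, adjusted p = 0.001). Kif23 also gave much of the member UMIs in neutrophil-like barcodes of Panc02-SIY, so its level there may not reflect division. Without untreated Panc02-SIY replicate 4, 12 members were called in all. The member called higher was Pttg1, at 63.95, 74.9, 83.7 and 71.1 CPM in MC38 and 62.1, 38.96, 24.8 and 32.6 CPM in Panc02-SIY with no overlap (1.09 ± 0.16, adjusted p = 5.6e-06). In all CD45+ barcodes Pttg1 was higher in MC38 as well (0.65 ± 0.10, adjusted p = 4e-05), and 10 other members were called lower, where 30% of all genes were called higher and 33.7% lower. The count of 11 there fell to 6 without untreated Panc02-SIY replicate 4 and to 7 without untreated Panc02-SIY replicate 2 or untreated MC38 replicate 2 or 3.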

How the data were processed

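Live CD45+ cells were captured in 16 libraries with 10x 3′ chemistry. The deposited values were raw UMI counts per gene and barcode, which per the labels the authors made with bcl2fastq 2.20.0 and Cell Ranger 3.1.0 on mm10 with no normalization. The 39 members, the other lists and the tests were chosen with earlier results of these data known. Barcodes were used as deposited and clustered with scanpy 1.11.5 on 2000 variable genes, from which 43 cell cycle genes had been left out (30 components, 20 neighbors, Leiden resolution 1), which gave 27 clusters. Clusters were named from fixed marker lists, and 2617 barcodes stayed unnamed. No doublets were removed in the main analysis, and removal of the 5% of barcodes with the highest Scrublet scores was an alternative. Counts were summed per library and class (at least 10 barcodes in each library) and tested with edgeR 4.0.16 (quasi-likelihood, TMM) in R 4.3.3, with 1 coefficient per group over all 16 libraries, genes filtered at a minimum count of 10 for all CD45+ barcodes and 3 for classes (and 15 in total), and Benjamini-Hochberg adjustment over all genes tested (limits: adjusted p 0.1, fold 1.3). Neutrophil-like barcodes were fitted over the 8 Panc02-SIY libraries, a change from the planned fit because MC38 had too few of them. DESeq2 1.42.0 was an alternative. Differences in brackets are log2 fold changes ± SE. The script was tested on simulated data with known changes. Values in every library are given for members drawn from a fixed set and from called members. The fixed set was Mki67, Top2a, Cdk1, Ccnb1 and the highest member of each role. The called members were up to 5 by adjusted p and by fold in each comparison. Not every one of these has its library values given in every comparison. Pttg1, Kif23 in neutrophil-like barcodes, and members named only by a fold change were chosen after their values were seen. A count of 0 was given the upper limit of 3 counts, which covers counting error only. Promoter motifs were searched on both strands. No 2 replicates were as close as sampling noise (chi-square per degree of freedom 3.43 to 84.2).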

Additional observations from a re-analysis of the deposited data

Results flagged for a closer look

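In 13 of 180 groups of 4 libraries, 1 library stood further from its neighbors than Dixon's critical value at the 95% level allows, where chance flags about 1 in 20 groups (5%). None of these was weighed further.

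In all CD45+ barcodes, Nusap1 stood at 49.3 CPM in untreated MC38 replicate 1, above 18.4 to 23.0 CPM in the other 3. The same library stood high for the summed member level in T cell-like barcodes, at 5384 CPM against 1455 to 1822 CPM, and in NK cell-like barcodes, at 2920 CPM against 678 to 839 CPM. In its macrophage-like barcodes Cks2 was at 68.4 CPM against 53.9 to 56.2 CPM.

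Untreated Panc02-SIY replicate 1, which had 144 macrophage-like barcodes, stood low in that class for Anln (3.65 CPM against 18.8 to 21.3 CPM), Ccnb1 (7.31 CPM against 24.0 to 27.2 CPM) and Dlgap5 (3.65 CPM against 23.1 to 24.0 CPM). At its depth 3 counts are 10.96 CPM, so each of its values here rests on fewer than 3 UMIs. Irradiated Panc02-SIY replicate 1 stood low for Anln in the same class, at 7.39 CPM against 15.3 to 16.7 CPM.

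In NK cell-like barcodes, untreated Panc02-SIY replicate 2 stood high for Ckap2l, at 11.1 CPM against 2.43 to 3.19 CPM, and for the summed member level, at 1483 CPM against 569.7 to 687 CPM. Ckap2l was at 12.1 CPM in irradiated MC38 replicate 4 and at 0 in the other 3. In cDC-like barcodes the summed level was 947 CPM in untreated MC38 replicate 3 against 541 to 605 CPM, and 2304 CPM in irradiated MC38 replicate 2 against 389.8 to 692 CPM.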

How the results depend on the processing

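In every alternative of a radiation comparison, all called members were lower, but how many were called moved. The causes were not tested except where fewer samples or genes were used. The share of all genes called is not given for these alternatives, so a higher count may reflect more calls over all genes. Over all CD45+ barcodes of MC38, 1 member was called as reported, 0 at an adjusted p below 0.05, without the filter or with libraries thinned to equal depth, 2 with the replicate block, 19 with only the 2 groups in the fit and 6 with shared barcodes kept in the richest library (0 to 1 leaving out 1 library). In Panc02-SIY the 5 became 1 at an adjusted p below 0.05, without the filter, with only 2 groups, with the richest library or with barcodes of 2000 or more UMIs, 3 at a minimum count of 3, 8 by DESeq2 and 13 without the fibroblast-like and unnamed clusters (0 to 32). The settings without these clusters and with 2000 or more UMIs were chosen after seeing the data, as was the neutrophil-like fit on 8 libraries. In macrophage-like barcodes of MC38 the 20 became 32 with only the 2 groups (9 to 26). In those of Panc02-SIY the 9 became 5 at an adjusted p below 0.05, with the richest library or with the cell filter, 4 with 2000 or more UMIs, 1 with only the 2 groups and 15 with the replicate block (1 to 27). The replicate block gave 1 call in the macrophage-like interaction, in T cell-like barcodes of Panc02-SIY (0 to 2) and in neutrophil-like barcodes of Panc02-SIY (0 to 1), where the last also had 1 without the filter. In NK cell-like barcodes of Panc02-SIY the 1 became 0 at an adjusted p below 0.05, at a minimum count of 10 or with cycle genes in the clustering, 4 when thinned, 5 with the replicate block, 6 with only the 2 groups and 11 without the filter (0 to 4). cDC-like barcodes of Panc02-SIY had 6 without the filter and 1 when thinned (0 to 1). Between untreated tumors, the 11 over all CD45+ barcodes became 7 at an adjusted p below 0.05, without the filter or with the richest library (6 to 16), T cell-like barcodes had 1 without the filter or thinned (0 to 1), and the 21 in macrophage-like barcodes ranged over 12 to 24.

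The ratio of RT to NT for the share of barcodes with 2 or more members was 0.854 in all CD45+ barcodes of MC38 and 0.687 with the richest library. In macrophage-like barcodes of MC38 it was 0.822, 0.91 at 2000 UMIs and 0.564 with the richest library, and the summed level's ratio went from 0.576 to 0.424. In those of Panc02-SIY it was 0.57, 0.8 for at least 1 member and 0.87 unthinned. The log2 fold change of Ube2c over all CD45+ barcodes of Panc02-SIY turned to 0.01 without untreated Panc02-SIY replicate 4 (range -1.07 to 0.01). Over the named members, 360 fits that left out 1 library kept direction and side of the limit, 60 lost the call, 19 gained one and 1 turned. Not run, where a library had under 10 barcodes of the class, were the richest library for NK, monocyte-like and cDC-like barcodes, cell filter, doublets and resolution 2 for NK cell-like, cycle genes for cDC-like, and 2000 UMIs for T cell-like barcodes.

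Depth limits the rare classes most, with 14 to 97 T or NK cell-like barcodes in each MC38 library, and the summed counts cannot show whether fewer cells divided or dividing cells held fewer transcripts. The labels tie no library to another, and same-numbered NT and RT libraries deviated together at correlations of -0.05 to 0.17 in MC38, with 1 of 4 over 0.1, and of -0.17 to 0.80 in Panc02-SIY, with 3 of 4 over 0.1. An untreated library correlated best with its own number in 1 of 4 cases in MC38 and 3 of 4 in Panc02-SIY, a hint from the data and not from the design, so the pairing was not taken as given.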

Other observations

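Fibroblast-like barcodes, a small remainder of the CD45+ sort, held the highest member levels of any named class, at 4313 to 7678 CPM in NT and 4868 to 8770 CPM in RT libraries of MC38, and 3773 to 5395 CPM and 5296 to 6911 CPM in Panc02-SIY. Both pairs of ranges overlapped, and each library had 10 to 100 such barcodes. Their cluster, pooled over both tumors at a median of 725.5 UMIs per barcode, also had the tumor or epithelial markers Krt8 and Krt18 raised. Krt8 was not detected in any MC38 library, so its raised level came from Panc02-SIY barcodes. Whether these barcodes were fibroblasts or tumor cells was not tested. In monocyte-like barcodes of MC38, Pttg1 gave 27.6% of member UMIs, whereas Top2a gave 6.27%.

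Inside cluster 13 of Panc02-SIY the ratio of summed member to summed S phase counts was 0.832, 1.35, 0.990 and 1.52 in NT and 1.63, 2.28, 1.68 and 2.66 in RT libraries, with every RT library above every NT library. The S phase level itself was 5433, 5198, 5239 and 4688 CPM in NT and 7207, 4708, 4961 and 4144 CPM in RT libraries, which overlapped. These are descriptions with no test, and the first RT value rests on 3 barcodes.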
